A study of Mus musculus with 6 samples.

Results

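Cell division genes were examined as a set in native cardiac fibroblasts (CFs) from mice with and without the long noncoding RNA Charme. The set was a list of 38 genes of S phase, G2 and mitosis, matched by symbol in a count table of 49548 genes, and all 38 were among the 15789 genes that passed the filter of 10 counts in at least 2 libraries. Native CFs came from 3 wild-type (WT) and 3 CharmeKO samples of C57BL/6J mice aged 5 weeks. The CharmeKO mice carry a polyadenylation signal inserted into the Charme locus in every cell of the body, and the WT mice have the intact locus. Hearts were enzymatically dissociated, red cells were lysed and hematopoietic lineages were depleted with magnetic beads, so the isolate was not sorted for a fibroblast marker. The labels also list a growth medium for plated cells, while the methods of the study describe native CFs as freshly isolated, and the name native CFs is kept here. The methods give hearts of 3 mice for each genotype as the source, and the labels do not tie each library to a mouse, so the p-values measure the spread between these samples.

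A cell that divides passes through G1, copies its DNA in S phase, and separates the copies in mitosis after a second gap, G2. The genes for these steps are switched on in order: E2F factors drive the replication genes at the entry into S phase, and the B-MYB and FOXM1 factors drive the mitotic genes later, while the DREAM complex and RB proteins hold both groups down in resting cells. Most fibroblasts of a healthy adult heart are resting, and the division genes in such tissue reflect the minority of cells in cycle. In a bulk library, fewer cells in cycle and less RNA per cell cannot be told apart.

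Promoter sequences of 6 of these genes are shown because they hold the boxes known from cell cycle promoters. They include genes from both ends of the range of variation described below and 1 from between. Each is the RefSeq window of 250 bases before to 50 after a transcription start on the mouse assembly GRCm38.p6, printed 5′ to 3′ on the strand of the gene. Capitals mark every match on either strand to CCAAT (the CCAAT box), TTTGAA or TTTAAA (2 forms of the CHR element, bound by DREAM and MYB-MuvB complexes), and TTCCCGC or TTGGCGC (E2F sites). Matches that overlap are run together. Top2a (chr11:99024140-99024439, minus strand), Mki67 (chr7:135716330-135716629, minus strand) and Ccnb1 (chr13:100786437-100786736, minus strand) are mitotic genes that differed most between the WT libraries. Tk1 (chr11:117825965-117826264, minus strand) is the replication gene that differed most. Pcna (chr2:132253131-132253430, minus strand) is the replication gene that differed least. Mcm3 (chr1:20820263-20820562, minus strand) is a replication gene near the middle of the S phase genes.
Top2a: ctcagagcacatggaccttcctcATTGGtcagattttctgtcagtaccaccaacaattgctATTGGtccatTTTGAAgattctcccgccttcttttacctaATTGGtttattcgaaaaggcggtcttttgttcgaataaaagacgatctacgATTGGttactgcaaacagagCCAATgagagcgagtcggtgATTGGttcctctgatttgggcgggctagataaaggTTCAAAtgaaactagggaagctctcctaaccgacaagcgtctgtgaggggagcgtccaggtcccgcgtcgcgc
Mki67: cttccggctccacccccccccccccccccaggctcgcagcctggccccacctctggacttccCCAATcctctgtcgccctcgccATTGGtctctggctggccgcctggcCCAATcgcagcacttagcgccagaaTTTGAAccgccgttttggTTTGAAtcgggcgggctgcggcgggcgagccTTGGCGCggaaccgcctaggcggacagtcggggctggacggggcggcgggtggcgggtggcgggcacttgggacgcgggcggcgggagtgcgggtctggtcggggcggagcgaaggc
Ccnb1: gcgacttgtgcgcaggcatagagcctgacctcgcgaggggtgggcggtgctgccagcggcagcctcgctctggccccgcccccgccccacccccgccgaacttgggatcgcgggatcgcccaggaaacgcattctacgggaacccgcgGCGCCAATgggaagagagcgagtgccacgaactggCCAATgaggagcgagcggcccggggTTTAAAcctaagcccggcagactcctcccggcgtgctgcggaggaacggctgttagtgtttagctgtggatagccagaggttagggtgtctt
Tk1: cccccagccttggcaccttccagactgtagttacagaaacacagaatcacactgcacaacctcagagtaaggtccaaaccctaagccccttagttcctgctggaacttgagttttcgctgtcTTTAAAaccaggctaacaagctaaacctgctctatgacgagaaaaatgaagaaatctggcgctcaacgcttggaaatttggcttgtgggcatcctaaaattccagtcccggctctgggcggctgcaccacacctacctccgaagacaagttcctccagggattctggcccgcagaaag
Mcm3: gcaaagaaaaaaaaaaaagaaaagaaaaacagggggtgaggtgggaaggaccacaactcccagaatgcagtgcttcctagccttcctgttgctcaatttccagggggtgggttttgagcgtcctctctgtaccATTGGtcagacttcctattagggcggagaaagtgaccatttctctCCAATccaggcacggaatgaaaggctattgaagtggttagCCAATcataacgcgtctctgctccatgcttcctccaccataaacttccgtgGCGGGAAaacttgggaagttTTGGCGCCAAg
Pcna: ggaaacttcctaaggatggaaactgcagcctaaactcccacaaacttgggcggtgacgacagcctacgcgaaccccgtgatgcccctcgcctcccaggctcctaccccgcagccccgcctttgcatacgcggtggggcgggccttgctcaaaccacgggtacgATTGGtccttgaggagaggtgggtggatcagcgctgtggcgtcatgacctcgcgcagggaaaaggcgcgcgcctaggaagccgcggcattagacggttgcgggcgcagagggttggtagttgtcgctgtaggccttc
The Top2a window held 6 CCAAT and 2 TTTGAA matches, and the Mki67 window held 3 CCAAT, 2 TTTGAA and 1 TTGGCGC match. In the Ccnb1 window there were 2 CCAAT, 1 TTTAAA and 1 TTGGCGC match. The Tk1 window had a single TTTAAA match and the Pcna window a single CCAAT match. The Mcm3 window held 3 CCAAT, 1 TTCCCGC and 2 TTGGCGC matches and no CHR match. Promoters were found for 31 of the 38 genes, 33 windows in all, since Mcm7 and Prc1 have 2 each and those of Prc1 overlap. No window was matched for Tpx2, Ccna2, Mcm4, Ccne2, Foxm1, Kif20a and Aurkb.

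A CCAAT match was present in 81.8% of the 33 windows and in 37.4% of the 32851 mouse promoter windows of the same length. Either CHR form was present in 89.5% of the 19 windows of G2 and mitosis genes, in 42.9% of the 14 windows of S phase genes, and in 27.6% of all windows. Either E2F form was present in 50% of the S phase windows, in 15.8% of the G2 and mitosis windows, and in 6.81% of all windows. The letters alone are a description and do not show that a factor binds there.

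The libraries held between 9595701 and 42101393 counts in WT and between 23550718 and 31048606 in CharmeKO, and WT replicate 3 was the shallowest. Charme itself had 26, 15 and 4 counts in WT replicates 1, 2 and 3, and 7, 0 and 0 in the CharmeKO replicates, so this locus is a weak check of the genotype in CFs. Levels are given as CPM, the count scaled to a common total after TMM normalization, which adjusted the library totals by factors of 0.941 to 1.07. With a count of 0, a gene may still be present at up to 3 counts, for counting error alone. On the unadjusted library totals this is 0.0713 to 0.313 CPM depending on the library. Fibroblast markers summed to between 31110 and 40061 CPM in every library, with Pdgfra, a receptor of stromal cells, at 362 to 464 CPM and Col1a1, a collagen I chain, at 1733 to 4657 CPM. The libraries divided by sex-linked transcripts, with Xist dominant in WT replicate 1 and in CharmeKO replicates 1 and 2, and Y-linked transcripts dominant in WT replicates 2 and 3 and in CharmeKO replicate 3. CharmeKO replicate 1 also had 136 Y-linked counts beside 13553 of Xist, where the other 2 libraries with dominant Xist had 0. WT replicate 2 had 67 Xist counts beside 2967 Y-linked ones, where WT replicate 3 had 0 of Xist and CharmeKO replicate 3 had 9.

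The comparison of CharmeKO with WT asked whether the loss of Charme goes with a change of division genes in CFs. All 38 genes had a negative log2 fold change (CharmeKO minus WT), with a median of -1.06 and a range from -2.01 for Cenpf to -0.02 for Rrm1, whereas 51.2% of all tested genes had a positive value and their median was 0.01. None of the 38 passed the test, with adjusted p-values from 0.241 to 0.974 (edgeR quasi-likelihood test, n = 3 and 3), and 0.412% of all tested genes were called lower. An unadjusted p under 0.05 was reached by 16 of the 38 genes, and by 12.8% of all tested genes. DESeq2 called 1 of the 38 lower, the kinetochore motor gene Cenpe (DESeq2 adjusted p = 0.0322), where it called 1.52% of all genes lower. The 15 S phase genes had a median of -0.51 and the 23 G2 and mitosis genes a median of -1.27 on the log2 scale.

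The WT libraries differed widely from each other in these genes. WT replicate 3 was the highest of the 6 libraries for 33 genes and WT replicate 1 for the other 5. WT replicate 2 was the lowest of the 6 for 27 genes, which held for 20.9% of all tested genes. All 3 CharmeKO libraries lay below both WT replicates 1 and 3 for all 38 genes, against 16.0% of all tested genes. These 2 WT libraries were singled out after their high values in the 38 genes were seen, which by itself raises that count. The CharmeKO libraries lay below all 3 WT libraries for only 2 genes, Cdc6 and Ccne1, against 8.59% of all tested genes. The median SD of log2(CPM + 1) over the 38 genes was 1.05 in WT and 0.28 in CharmeKO, while over all tested genes it was 0.19 and 0.17.

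**Figure D1:**
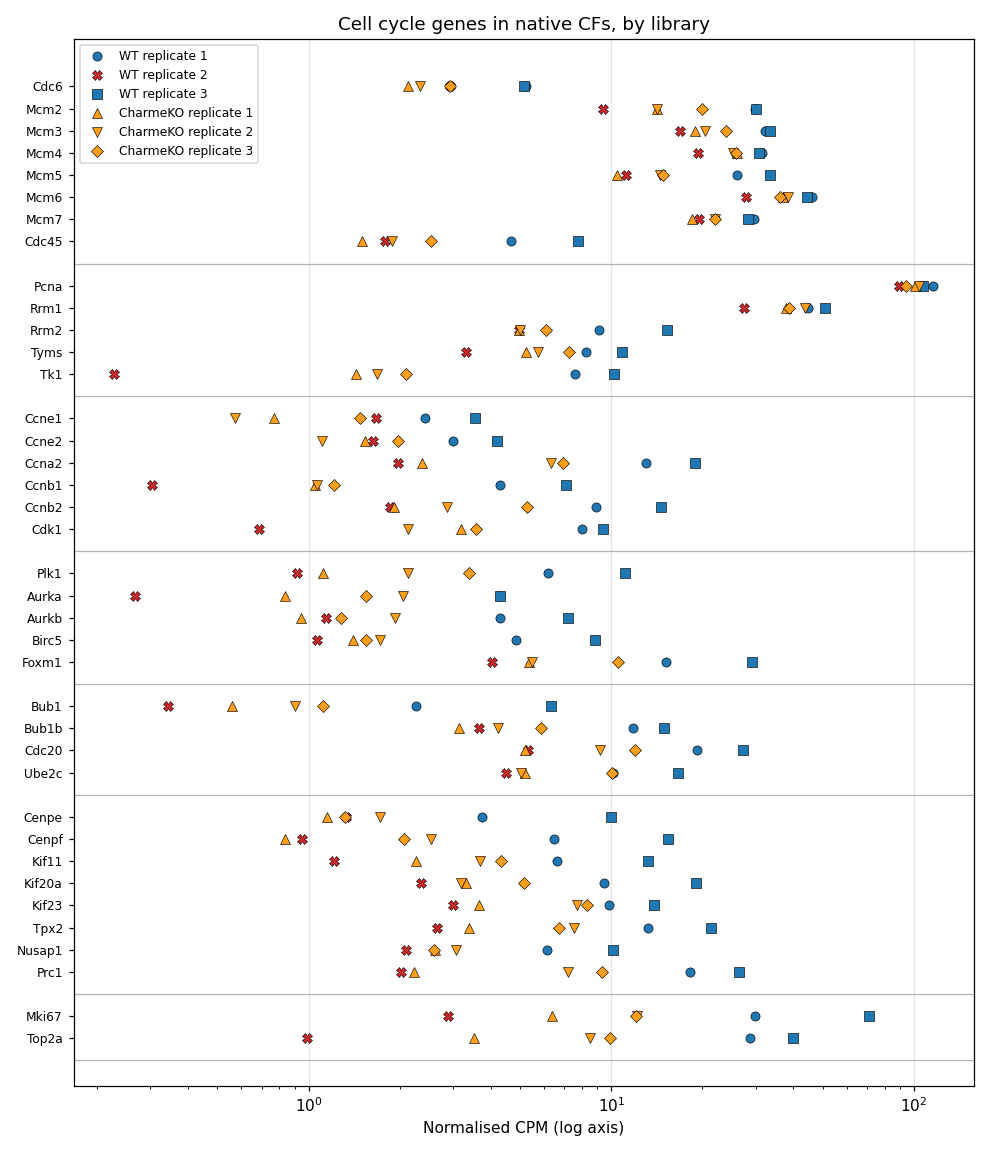
Normalised CPM (log axis) of each of the 38 genes in each of the 6 libraries, grouped by role from replication genes at the top to Mki67 and Top2a at the bottom. Blue and red symbols are WT, with WT replicate 2 as a red cross, and orange symbols are CharmeKO. The CharmeKO symbols lie between the red cross and the blue symbols for 27 genes, and the blue symbols lie to the right of every orange one.

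Among the genes that license and unwind replication origins, the WT libraries differed least. Mcm6, a subunit of the MCM helicase, was at 46.0, 28.0 and 44.3 CPM in WT replicates 1 to 3 and at 36.8, 38.5 and 36.2 CPM in the CharmeKO replicates. All CharmeKO values were between those of WT replicate 2 and the other WT replicates, and the log2 fold change was -0.08 (95% interval -0.46 to 0.29, edgeR adjusted p = 0.883). Mcm4, of the same helicase, was at 31.5, 19.3 and 30.9 CPM in WT and 26.1, 25.3 and 25.8 CPM in CharmeKO. Its difference of -0.08 on the log2 scale had an interval of -0.46 to 0.31 (edgeR adjusted p = 0.896). Mcm3 was at 32.2, 16.9 and 33.5 CPM in WT and 18.9, 20.4 and 24.0 CPM in CharmeKO, a log2 fold change of -0.37 with an interval of -0.87 to 0.12 (edgeR adjusted p = 0.526). The helicase subunit Mcm5 had a wider gap, with 26.1, 11.1 and 33.6 CPM in WT, and with 10.4, 14.5 and 14.8 CPM in CharmeKO. Mcm2 and Mcm7 had log2 fold changes of -0.51 and -0.31, and neither passed the test.

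Cdc6, which loads the helicase onto DNA, was at 5.22, 2.93 and 5.16 CPM in WT and at 2.13, 2.33 and 2.93 CPM in CharmeKO. The groups did not overlap, but the highest CharmeKO library and WT replicate 2 were nearly equal. Its log2 fold change was -0.84 with an interval of -1.52 to -0.15 (edgeR adjusted p = 0.293). Cdc45, a partner that turns the loaded helicase on, was at 4.68, 1.79 and 7.75 CPM in WT and at 1.502, 1.882 and 2.533 CPM in CharmeKO, and WT replicate 2 lay among the CharmeKO libraries.

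Pcna, the sliding clamp of the DNA polymerases, was the most even of the 38 genes. It was at 115.3, 89.1 and 107.4 CPM in WT and at 100.5, 104.3 and 94.1 CPM in CharmeKO, and the difference of -0.06 on the log2 scale had an interval of -0.33 to 0.21 (edgeR adjusted p = 0.880). Reads of Pcna could be shared with a processed copy, Pcna-ps2, which had 378 counts over the 6 libraries. These were uneven, with 41, 15 and 6 in WT and 148, 23 and 145 in CharmeKO. Pcna itself had 4904, 2342 and 998 counts in WT and 2877, 2549 and 2860 in CharmeKO. Rrm1, the large subunit of ribonucleotide reductase, was at 44.7, 27.5 and 50.7 CPM in WT and at 37.7, 43.8 and 38.7 CPM in CharmeKO, a difference of -0.02. Its partner Rrm2, the subunit made in S phase, was at 9.10, 4.95 and 15.3 CPM in WT and at 4.96, 4.99 and 6.09 CPM in CharmeKO. WT replicate 2 and 2 of the CharmeKO libraries were thus level for Rrm2. Tyms, which makes thymidylate, had a log2 fold change of -0.26 (interval -1.04 to 0.51).

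Tk1, the thymidine kinase that salvages thymidine in dividing cells, varied most of all within WT. It was at 7.57, 0.228 and 10.2 CPM in WT and at 1.43, 1.68 and 2.11 CPM in CharmeKO. The value of WT replicate 2 rests on 6 counts, with an exact 95% Poisson interval of 0.0838 to 0.497 CPM, which lies below each of the other 5 libraries. The mean of WT replicates 1 and 3 was 39.0 times that of WT replicate 2, and the CharmeKO libraries differed from each other by at most 1.47 times. The genotype difference for Tk1 was -1.75 on the log2 scale, with an interval of -3.51 to 0.01 (edgeR adjusted p = 0.397).

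Among the cyclins, those of the entry into S phase had the smallest gaps within WT. Ccne1, a cyclin E gene of the entry into S phase, was at 2.42, 1.67 and 3.55 CPM in WT and at 0.768, 0.573 and 1.48 CPM in CharmeKO. Its groups did not overlap, and its log2 fold change was -1.39 with an interval of -2.44 to -0.35 (edgeR adjusted p = 0.262). The other cyclin E gene, Ccne2, was at 3.01, 1.64 and 4.20 CPM in WT and at 1.54, 1.10 and 1.97 CPM in CharmeKO. Ccna2, the cyclin A of S phase and G2, was at 13.1, 1.98 and 18.9 CPM in WT and at 2.38, 6.34 and 6.91 CPM in CharmeKO.

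Cyclin B drives entry into mitosis together with the kinase Cdk1. Ccnb1 was at 4.28, 0.304 and 7.10 CPM in WT and at 1.05, 1.06 and 1.22 CPM in CharmeKO, so that WT replicate 2 was the lowest library and the CharmeKO libraries were close together. The WT replicate 2 value of Ccnb1 rests on 8 counts, with a Poisson interval of 0.131 to 0.600 CPM. Its difference was -1.75 on the log2 scale (interval -3.39 to -0.12, edgeR adjusted p = 0.356). Ccnb2 was at 8.93, 1.86 and 14.6 CPM in WT and at 1.92, 2.86 and 5.26 CPM in CharmeKO, and Cdk1 was at 7.99, 0.685 and 9.36 CPM in WT and at 3.18, 2.13 and 3.59 CPM in CharmeKO. For both genes WT replicate 2 was the lowest library.

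Mitotic kinases and their partners had WT replicate 3 highest and WT replicate 2 lowest among the WT libraries. Plk1, a kinase of spindle assembly and mitotic exit, was at 6.18, 0.913 and 11.1 CPM in WT and at 1.12, 2.13 and 3.39 CPM in CharmeKO. Aurka, the kinase of the spindle poles, was at 4.28, 0.266 and 4.30 CPM in WT and at 0.838, 2.05 and 1.55 CPM in CharmeKO. For both kinases WT replicate 2 was the lowest library, and its Aurka value rests on 7 counts. Aurkb, the kinase of the chromosomal passenger complex, was at 4.28, 1.14 and 7.21 CPM in WT and at 0.943, 1.92 and 1.28 CPM in CharmeKO, with a log2 fold change of -1.56 (interval -2.79 to -0.33, edgeR adjusted p = 0.280). Birc5, which encodes survivin of the same complex, was at 4.84, 1.07 and 8.82 CPM in WT and at 1.397, 1.718 and 1.546 CPM in CharmeKO, with a log2 fold change of -1.61 (interval -2.86 to -0.35, edgeR adjusted p = 0.275). Foxm1, the transcription factor of the G2 and mitosis genes, was at 15.2, 4.03 and 29.2 CPM in WT and at 5.34, 5.48 and 10.6 CPM in CharmeKO, and its WT libraries stood in the same order as those of the kinases.

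The spindle checkpoint delays anaphase until every chromosome is attached. Bub1b, its BUBR1 component, was at 11.80, 3.65 and 14.95 CPM in WT and at 3.14, 4.21 and 5.86 CPM in CharmeKO. WT replicate 2 lay within the CharmeKO range, and the log2 fold change was -1.17 (interval -2.10 to -0.25, edgeR adjusted p = 0.281). Bub1, the checkpoint kinase, was at 2.26, 0.342 and 6.35 CPM in WT and at 0.559, 0.900 and 1.12 CPM in CharmeKO. Cdc20, the activator of the anaphase-promoting complex, was at 19.2, 5.29 and 27.3 CPM in WT and at 5.17, 9.20 and 11.9 CPM in CharmeKO, with a log2 fold change of -0.95 (interval -1.96 to 0.07, edgeR adjusted p = 0.426). Ube2c, the ubiquitin-conjugating enzyme of that complex, had the smallest gap within WT of these 4 genes, with 10.1, 4.49 and 16.7 CPM in WT and 5.20, 5.03 and 10.03 CPM in CharmeKO.

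Kinetochore genes had the most negative log2 fold changes of the set. Cenpf, a kinetochore protein of G2 and mitosis, was at 6.49, 0.951 and 15.4 CPM in WT and at 0.838, 2.54 and 2.07 CPM in CharmeKO, a log2 fold change of -2.01 (interval -3.61 to -0.41, edgeR adjusted p = 0.284). Cenpe, the kinetochore motor, was at 3.738, 1.332 and 10.005 CPM in WT and at 1.15, 1.72 and 1.32 CPM in CharmeKO, a log2 fold change of -1.78 (interval -3.06 to -0.50, edgeR adjusted p = 0.241). In both genes WT replicate 2 fell within the CharmeKO range. The motors Kif11, Kif20a and Kif23, the spindle proteins Tpx2 and Nusap1, and Prc1, which bundles microtubules of the central spindle, had log2 fold changes from -1.35 for Kif20a to -0.40 for Kif23. WT replicate 2 was the lowest library for each of these 6 genes. Prc1 also differed most within CharmeKO, with 2.24, 7.20 and 9.34 CPM beside 18.2, 2.02 and 26.4 CPM in WT.

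Mki67, the gene of the Ki-67 antigen used to stain cycling cells, was at 29.8, 2.89 and 71.3 CPM in WT and at 6.36, 12.2 and 12.0 CPM in CharmeKO. Top2a, the topoisomerase that untangles replicated chromosomes, was at 28.8, 0.989 and 39.9 CPM in WT and at 3.53, 8.51 and 9.90 CPM in CharmeKO. For both genes the order ran from WT replicate 2, through the CharmeKO libraries, to WT replicates 1 and 3. WT replicates 1 and 3 together averaged 17.5 times WT replicate 2 for Mki67 and 34.7 times for Top2a. The genotype differences were -1.73 for Mki67 (interval -3.32 to -0.13, edgeR adjusted p = 0.352) and -1.64 for Top2a (interval -3.39 to 0.12, edgeR adjusted p = 0.426).

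**Figure D2:**
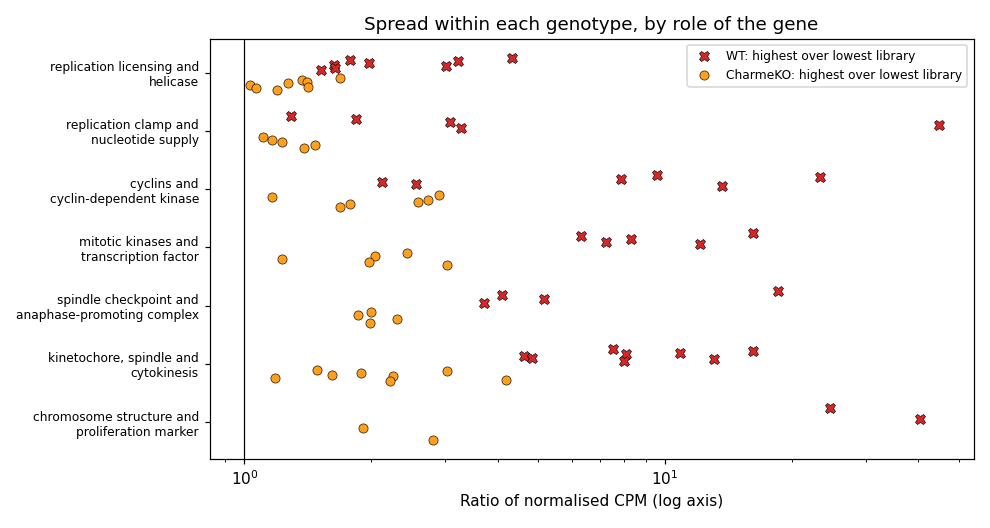
Ratio of the highest to the lowest library (log axis) within WT (red crosses) and within CharmeKO (orange circles) for each of the 38 genes, in rows by role. The median ratio was 5.74 in WT and 1.74 in CharmeKO, with WT ratios from 1.29 for Pcna to 44.8 for Tk1.

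Over the G2 and mitosis genes the mean of WT replicates 1 and 3 was between 2.99 and 34.7 times WT replicate 2, with a median of 6.48. Over the S phase genes it was between 1.25 times for Pcna and 39.0 times for Tk1, with a median of 1.94. The CHR element ran alongside this split by phase: the median was 6.37 times for the 22 genes with a CHR match, of which 16 were G2 and mitosis genes, and 1.77 times for the 9 genes without one, of which 2 were. For the CCAAT box the medians were 4.40 times with a match (25 genes) and 3.38 times without (6 genes), and for E2F sites 1.94 times with a match (9 genes) and 4.78 times without (22 genes). This is a description over genes that share the same 6 libraries. For 6 of the 38 genes, WT replicate 2 was under 50% of every other library, as it was for 319 of all 15789 tested genes.

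Leaving out WT replicate 2 changed which genes were called. Between WT replicates 1 and 3 and the 3 CharmeKO libraries, 26 of the 38 genes were lower in CharmeKO in edgeR's test, against 1.40% of all tested genes, and the median log2 fold change was -1.54. These 26 were 6 of the 15 S phase genes and 20 of the 23 G2 and mitosis genes. Tk1 (-2.34, edgeR adjusted p = 0.00139), Top2a (-2.22, 0.00354) and Mki67 (-2.29, 0.00382) had the lowest adjusted p-values. The S phase genes called were Tk1, Mcm5, Mcm2, Mcm3, Rrm2 and Cdc45. Not called were Mcm4, Mcm6, Mcm7, Pcna, Rrm1, Tyms, Cdc6, Ccne1 and Ccne2 of S phase, and Aurka, Ube2c and Kif23 of mitosis. The library was left out after its values were seen, which by itself moves the comparison towards a difference, and leaving out any of the other 5 libraries gave 0 calls. Without WT replicate 3 the median log2 fold change was -0.59, and 5 of the 38 genes had a positive value.

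**Figure D3:**
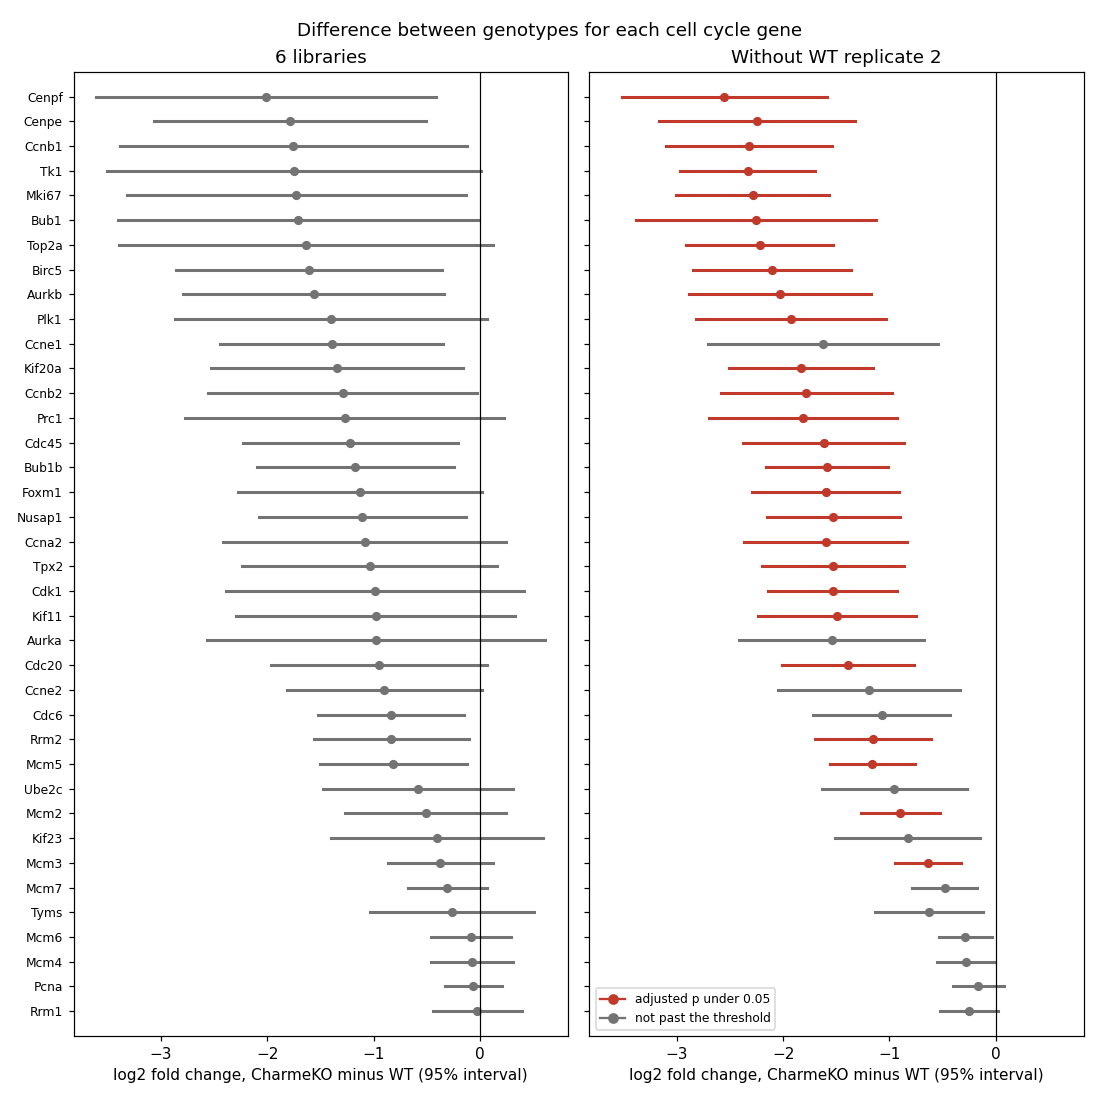
Log2 fold change (CharmeKO minus WT) with its 95% interval for each of the 38 genes, from the edgeR fit of all 6 libraries (left) and of the 5 libraries without WT replicate 2 (right). Grey intervals did not pass an adjusted p of 0.05 and red ones did. On the left all 38 are grey, and on the right 26 are red.

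Summed over genes, the 23 G2 and mitosis genes were at 245, 45.5 and 416 CPM in WT and at 61.6, 102.4 and 126 CPM in CharmeKO. The WT mean was 236 ± 186 CPM and the CharmeKO mean 96.7 ± 32.6 CPM (SD, n = 3). The 15 S phase genes summed to 395, 237 and 416 CPM in WT and to 281, 301 and 300 CPM in CharmeKO, with means of 350 ± 97.6 and 294 ± 11.4 CPM. In both sums WT replicate 2 was the lowest library and WT replicate 3 the highest. The SD in WT was larger than the difference between the means for the G2 and mitosis sum and for the S phase sum.

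Other gene groups also set WT replicate 2 apart. Immediate early genes, such as Fos and Fosb, which respond within minutes to stimulation and to tissue dissociation, were highest in WT replicate 2 for 9 of 10 genes, and their sum was 44666 CPM there and 29461 to 36667 CPM in the other libraries. Leukocyte markers were measured for 12 of 15 genes, and summed to 40.9 CPM in WT replicate 2 and to 53.1 to 80.7 CPM elsewhere, after a depletion aimed at these cells, with 6 of the 12 at their lowest in WT replicate 2. The sum of cardiomyocyte markers was lowest there, at 294 CPM, with 7 of 9 genes at their lowest. The sum of fibroblast markers was highest there, at 40061 CPM, but only 2 of the 10 genes were at their highest and 3 at their lowest, and Gsn, the most abundant of them, made up 26456 CPM of that sum. Sums of endothelial markers (7969 to 10647 CPM), mural markers (2440 to 2874 CPM) and Schwann cell markers (6.26 to 8.56 CPM) did not have WT replicate 2 at either end. WT replicates 2 and 3, which were furthest apart in the cell cycle genes, were on the same side of the Xist and Y-linked split. The part of these groups in the spread of the cell cycle genes was not tested.

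**Figure D4:**
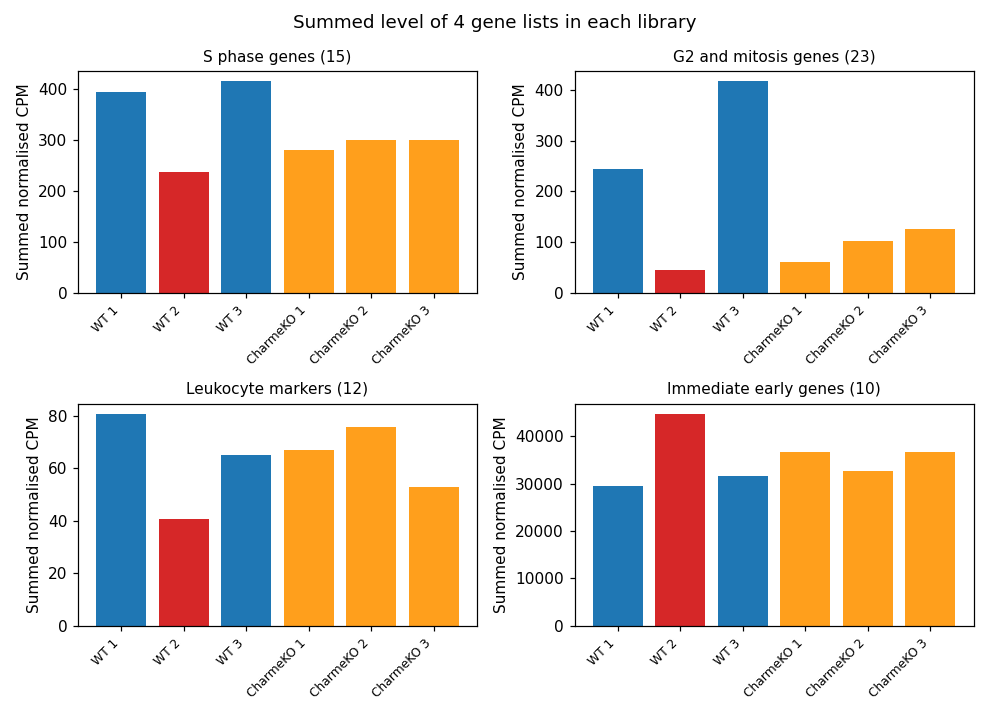
Summed normalised CPM in each of the 6 libraries for the 15 S phase genes, the 23 G2 and mitosis genes, 12 leukocyte markers and 10 immediate early genes, on linear axes from 0. WT replicates 1 and 3 are blue, WT replicate 2 is red and CharmeKO is orange. WT replicate 2 is the lowest bar in the first 3 panels and the highest in the last.

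Between genotypes, markers of other cells moved in 2 lists. All 9 cardiomyocyte markers had a positive log2 fold change and 2 rose in CharmeKO, Myh6, the alpha myosin heavy chain (0.85, edgeR adjusted p = 0.0292), and Tnni3, cardiac troponin I (0.95, edgeR adjusted p = 0.0200), with summed levels of 294 to 378 CPM in WT and 425 to 643 CPM in CharmeKO. Of 8 erythroid markers, Slc4a1, the anion exchanger of red cells, fell (-1.82, edgeR adjusted p = 0.00555), and the erythroid sum was 26811 to 39263 CPM in WT and 24438 to 31772 CPM in CharmeKO. Each of these edgeR calls was lost in 1 or more fits with 1 library left out, while the direction stayed the same. Slc4a1 was lost without CharmeKO replicate 1 (log2 fold change -1.67, edgeR adjusted p = 0.0550). Tnni3 was lost without WT replicate 3 or CharmeKO replicate 1 or 2 (0.81 to 0.94, edgeR adjusted p from 0.0944 to 0.131). Myh6 was lost without any 1 of WT replicates 1 and 3 and CharmeKO replicates 1 and 2 (0.67 to 0.85, edgeR adjusted p from 0.124 to 0.131). With all 6 libraries, DESeq2 called 5 of the 9 cardiomyocyte markers higher and 1 erythroid marker lower. Its adjusted p-values were 0.000135 for Myh6, 4.71e-05 for Tnni3 and 1.39e-09 for Slc4a1. None of the fibroblast, endothelial, mural, leukocyte, Schwann or immediate early genes was called by edgeR with all 6 libraries, where DESeq2 called 1 fibroblast and 1 mural marker lower. Without WT replicate 2, edgeR called 2 of the 10 fibroblast markers lower, Col1a1 and the matricellular protein gene Postn (Gsn and Postn were named after their values were seen). Their part in the values of the cell cycle genes was not tested.

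Further genes of mitosis also had mostly negative values. Of 55 other mitosis genes, 54 had a negative log2 fold change, the median was -1.03, and WT replicate 2 was the lowest library for 33. Pttg1, which encodes securin, the inhibitor of the enzyme that cuts sister chromatids apart, was the only one called by edgeR, and DESeq2 called it and 1 other lower, the condensin subunit gene Ncaph, named after its values were seen. Pttg1 was at 17.5, 18.5 and 15.2 CPM in WT and at 9.40, 10.3 and 9.24 CPM in CharmeKO, so WT replicate 2 was the highest library and the groups did not overlap. Pttg1 fell by 0.83 on the log2 scale (edgeR adjusted p = 0.0263). The call was lost when any 1 library other than WT replicate 2 was left out, with edgeR adjusted p-values from 0.0532 to 0.164, and when all libraries were thinned to the total of the shallowest (0.0620). The extremes of the list were Cdca3, a mitotic entry factor, at -2.29 and the phosphatase gene Cdc25a at 0.07, and neither passed the test. Without WT replicate 2, all 55 had a negative value, and edgeR called 17 of them lower in CharmeKO, against 1.40% of all tested genes.

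Other DNA replication genes were divided in direction. Of 42 genes, 25 had a positive and 17 a negative log2 fold change, with a median of 0.08, and none was called by edgeR or DESeq2. Mcm10, a replication initiation factor, had the lowest value, -1.71, and Orc1, of the origin recognition complex, the highest, 0.67. Even so, WT replicate 2 was the lowest library for 26 of the 42. Without WT replicate 2, 23 of the 42 had a negative value, and edgeR called 3 lower in CharmeKO. These were Mcm10, Uhrf1, which maintains DNA methylation, and Pole, a DNA polymerase subunit (the last 2 named after their values were seen).

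Of the genes that act upstream in the cycle, none of 18 RB, E2F and DREAM genes was called by edgeR, and DESeq2 called 2 lower. There were 7 positive and 11 negative values and a median of -0.13, from -1.81 for Mybl2, which encodes B-MYB, to 0.33 for E2f5. Those called by DESeq2 were E2f1 (-1.44, DESeq2 adjusted p = 0.00153) and E2f2 (-1.23, DESeq2 adjusted p = 0.00953), activators of S phase genes named after their values were seen. They were also the only ones of the list that edgeR called lower without WT replicate 2, and the fit with the replicate number as a block called E2f1 (edgeR adjusted p = 0.0138). E2f1 was at 19.6, 9.51 and 26.1 CPM in WT and at 4.82, 5.77 and 9.77 CPM in CharmeKO, where WT replicate 2 again lay within the CharmeKO range. E2f2 was at 10.7, 6.28 and 17.9 CPM in WT and at 4.47, 4.66 and 5.56 CPM in CharmeKO, with no overlap, and its log2 fold change was -1.21 (edgeR adjusted p = 0.140), beside -1.42 for E2f1 (edgeR adjusted p = 0.113).

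As lists, the G1 regulators had high summed levels, 638 to 1063 CPM for the D-type cyclins and G1 kinases, and small median differences. The 6 D-type cyclin and G1 kinase genes had a median of -0.17, from -0.31 for Ccnd3 to 0.15 for Ccnd2, both cyclins that carry growth signals to the cycle. Ccnd1, named after its values were seen, was at 457, 219 and 516 CPM in WT and at 338, 243 and 470 CPM in CharmeKO, with WT replicate 2 lowest. Of 7 CDK inhibitors, 6 were tested, with 4 positive and 2 negative values and a median of 0.10, from -0.23 for Cdkn2c to 0.50 for Cdkn2b. Their summed level was highest in WT replicate 2, at 814 CPM, and between 556 and 790 CPM in the other libraries. By gene, WT replicate 2 was the highest library for 2 of the 6 tested inhibitors and the lowest for 2. The 12 genes of p53 and its growth arrest targets were evenly divided, 6 and 6, from -0.34 for Plk2, a stress-induced kinase, to 0.25 for Ccng1, a cyclin induced by p53. No gene of these 3 lists was called by edgeR, with or without WT replicate 2, or by DESeq2 on all 6 libraries.

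Levels were compared between genes as CPM per kilobase of exon, averaged over the 6 libraries. Pcna was the most abundant of the 38 at 42.4 CPM per kb, followed by Mcm6 at 8.20, Mcm4 at 7.38, Cdc20 at 6.97 and Mcm3 at 6.48. Cenpf at 0.305, Cenpe at 0.372 and Bub1 at 0.441 CPM per kb were the least abundant. Apart from Cdc20, the 5 most abundant were therefore replication genes, and in these 4 the WT libraries differed by less than in the mitotic genes.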

How the data were processed

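Directional, poly(A)-selected mRNA libraries of native CFs were sequenced by the authors, aligned with STAR and counted on the genes of an edited Ensembl annotation that includes Charme, with the "reverse" strand setting. The submitters' processing notes list GRCm39 and GRCh38 as builds. The authors deposited raw counts, with no normalization or filter, and 0 columns per sample were left unused. The 6 libraries hold between 9595701 and 42101393 counts, which sets the counting error of low genes.

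All 15789 genes that reached 10 counts in 2 or more libraries were fitted together, and p-values were adjusted over all of them. CharmeKO was compared with WT by the quasi-likelihood test of edgeR 4.0.16 in R 4.3.3 (TMM normalization, Benjamini-Hochberg adjustment, threshold 0.05). Intervals of 95% come from the F statistic. The biological coefficient of variation was 20.2% (dispersion 0.0410). DESeq2 1.42.0, other normalizations and filters, the replicate number as a block, thinned counts and each library left out in turn were alternatives. The code was tested on simulated data. Within each genotype no library duplicated another, and pairs across genotypes were not checked.

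The 38 genes and all lists were chosen with earlier results of these data known. All 38 are described. Full statistics are given for the 5 with the lowest p, the 5 with the highest level and some others. Of each pathway list the called genes and both extremes are named. Of the marker lists only called genes and a few defining ones are given. Exon lengths came from GENCODE M21 on GRCm38, another build than that of the counts, and were used only as lengths. Promoter windows are from RefSeq on GRCm38.p6. Figures were drawn with matplotlib 3.10.9.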

Additional observations from a re-analysis of the deposited data

How the results depend on the processing

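The median log2 fold change of the 38 genes stayed negative in every alternative where it was computed. It ran from -0.59 (without WT replicate 3) to -1.54 (without WT replicate 2), and was not computed for DESeq2 with WT replicate 2 left out. The number of these genes called was 0 in the edgeR fit of all libraries, 1 with DESeq2, and from 0 to 26 with 1 library left out, where 26 came without WT replicate 2 and 0 without each other library. DESeq2 on those 5 libraries, an alternative chosen after seeing the data, called 28, among 687 genes in all. With a filter of 1 count in any library edgeR called 24, but its prior degrees of freedom were then infinite, so a gene's own spread between replicates no longer entered its test. The count over all genes was 131, and became 394 with DESeq2, 699 with that filter, 302 with the replicate block, and 61 to 349 with 1 library left out (61 without CharmeKO replicate 1, 349 without WT replicate 2). Calls in the 6 pathway lists numbered 1, and became 4 with DESeq2, 25 with that filter, 2 with the replicate block, and 0 to 22 with 1 library left out (22 without WT replicate 2). Between 0 and 5 of the 38 genes had a positive value with 1 library left out, 4 without WT replicate 1, 5 without WT replicate 3 and 1 without CharmeKO replicate 1, and 1 with the replicate block. Over the libraries left out, the log2 fold change ranged from -0.28 to 0.0571 for Mcm4, -0.29 to 0.0554 for Mcm6, -0.16 to 0.0245 for Pcna, -0.25 to 0.145 for Rrm1, -0.63 to 0.0640 for Tyms and -0.83 to 0.0198 for Kif23. Rrm1 was at 0.00949 with the replicate block. The same-numbered libraries of the 2 genotypes correlated at 0.216, 0.0535 and 0.161. Differently numbered libraries correlated between -0.223 and 0.0391, so each library correlated most with its own number. As the values were not all above 0.1, the numbers were not taken to pair the samples, and pairing was not settled. The replicate block called 0 of the 38 genes. A term for the split by Xist and Y-linked transcripts, added after seeing the data, left 0 of the 38 called and a median of -1.04. Thinning to the shallowest library also left 0. Counts as low as 6 in WT replicate 2 limit the precision of Tk1, Aurka, Ccnb1 and Bub1 there.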
